A study of Mus musculus with 9 samples.

Results

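The genes described are the C-type lectin (Clec) genes in neutrophils of carcinogen-treated mouse skin, its papillomas and its tumors. All gene names on the array that begin with Clec and a digit were taken, which gave 31 of 34797 gene names and 42 of 55681 probes. The rule selects by name alone and uses no measured value, though this family was picked for description with earlier results of these data known. Each gene was given the median of its probes.

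Gr-1bright neutrophils were sorted to a purity above 98% from 4 sites in FVB/N mice. All 4 groups came from mice given the carcinogen DMBA at an age of 6 weeks and again at 13 weeks, and the tumor promoter PMA 2 times a week from week 1 to week 18 to 20, so that no group stood for untreated skin. Papilloma skin (2 arrays) and tumor skin (2) were the skin next to the lesion, and papilloma (3) and tumor (2) were the lesions themselves. Skin or lesions of several mice were pooled for an array before the sort, so the spread between arrays was a spread between pools. The study's methods give dispase and DNase for the lesions in addition to the collagenase used for skin, so digestion and lesion cannot be told apart. In such samples fewer cells of a type and less RNA per cell cannot be told apart either.

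C-type lectin receptors are transmembrane or secreted proteins with a carbohydrate-binding fold, and many of them sense fungi, mycobacteria or dying cells on myeloid cells. Dectin-1 (Clec7a) carries its own signalling motif, whereas Dectin-2 (Clec4n), Mcl (Clec4d) and Mincle (Clec4e) signal through the Fc receptor gamma chain (Fcer1g). Both routes use the kinase Syk and, downstream of it, the adaptor Card9. The Dcir receptors include inhibitory members, and the Clec2 proteins are ligands of NK cell receptors of the Nkrp1 family.

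The deposited table of log2 values gave the levels. A level is that of a probe, so it was compared between arrays and not between genes. In the scanner files the first arrays of papilloma skin, tumor skin and tumor were compressed, with a spike-in slope of 0.678, 0.876 and 0.894 and 95.0%, 90.7% and 94.3% of spots well above background. The other 6 arrays had slopes of 1.04 to 1.06 and 44.2 to 64.2% of spots well above background, and they are called the full-slope arrays below. The table columns of papilloma skin 1 and tumor 1 had a rank correlation of only 0.588 and 0.827 with their own scanner files and lay closest to the file of tumor 2, at 0.924 and 0.947. The columns of papilloma 2 and papilloma 3 were each closest to the other's file, within one group. Results that rest on papilloma skin 1 or tumor 1 are therefore given with and without them.

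Most Clec genes lie close together. Of the 31 genes, 23 had their probes on chromosome 6 of the mouse build mm9. A stretch of 348.4 kb (chr6:122884578-123232937) held the probes of the 9 genes Clec4a1 to Clec4a4, Clec4b1, Clec4b2, Clec4n, Clec4d and Clec4e. A stretch of 96.9 kb (chr6:129314880-129411798) held those of Clec1a, Clec1b, Clec7a, Clec9a, Clec12a and Clec12b. The middle bases (16 to 45 of 60, counted from the 5′ end) of the probes that carry the results are shown, since near relatives could share a probe sequence.
Clec4n, chr6:123196969-123197028, plus strand: ctttctatgaactgctgttacttgaaagta
Clec4a1, chr6:122884578-122884637, plus strand: tgtagaaccaacaaataaacgtttgtgccc
Clec4a3, chr6:122919637-122919696, plus strand: tatgataatactggcacatgtgtaaactta
Clec4d, chr6:123224788-123224847, plus strand: cctggaataacattcaattggaagccctcg
Clec4e, chr6:123232878-123232937, minus strand: tacttgtatctactgcgcaagtagaacctg
Clec7a, chr6:129411739-129411798, minus strand: tttccagtgtggacttccaaattgctgggg
Clec3b, chr9:123066320-123066379, plus strand: agagcagaaggctgttgaagggtggggctt
No stretch of over 10 bases was shared between probes of different Clec genes. The full probes of Clec4a1 and Clec4a3 shared a run of at most 5 bases. Whether a probe also binds the transcript of a relative was not tested, since no transcript sequence was used here.

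Of the 31 genes, 18 had a mean log2 value of at least 6 and a probe well above background on every full-slope array of at least 1 group, and these are described in full. The other 13 had mean values of 4.92 to 5.92. For 6 of them (Clec12a, Clec18a, Clec2h, Clec2l, Clec3a and Clec4a2) no probe was well above background on any full-slope array, which gives a bound only.

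Few Clec genes differed between a lesion and its skin, and those that did lay mostly in the Clec4 stretch. Clec4n was higher in tumor than in tumor skin, while Clec4a1 and Clec4a3 were lower in both kinds of lesion and Clec3b was lower in papilloma. A gene passed the test where limma gave a p of 0.05 or less after Benjamini-Hochberg adjustment over all gene names, the log2 fold change was 1 or more in size and the mean log2 value was 6 or more. In tumor versus tumor skin 1 Clec gene was higher (3.23% of 31, against 2.75% of all gene names) and 2 were lower (6.45% against 1.61%). In papilloma versus papilloma skin none was higher (2.43% of all gene names were) and 3 were lower (9.68% against 1.17%). The median log2 fold change of the 31 genes was -0.08 and -0.02, beside -0.01 in both comparisons for all gene names. At an unadjusted p under 0.05, 11 (35.5%) and 9 (29.0%) of the 31 genes differed, beside 27.0% and 21.8% of all gene names. The shares of genes that passed the test rest on at most 3 genes each, and the unadjusted ones on 11 and 9.

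Clec4n, the gene of Dectin-2, a receptor for mannose-rich fungal walls, separated lesions from skin on all 9 arrays. Its log2 value was 14.06 and 14.07 in papilloma skin, 13.52 and 13.59 in tumor skin, 14.66, 14.73 and 14.71 in papilloma, and 15.11 and 14.90 in tumor. The lowest lesion array thus lay above the highest skin array. In these deposited values, replicates lay closer to each other than a lesion and its skin did, but not closer than tumor and papilloma did. The difference between tumor and tumor skin was 1.45 on the log2 scale (SE 0.13, adjusted p = 0.0012 in limma), a fold of 2.73. Between papilloma and papilloma skin it was 0.64 (SE 0.12, adjusted p = 0.0170), which was under the size asked for. The difference of these lesion effects was 0.81 (SE 0.18), and it did not pass (adjusted p = 0.142). Over all lesions and skin Clec4n rose by 1.04 (SE 0.09, adjusted p = 0.000276). This size lay close to the limit of 1, and the call was lost without tumor 1 (0.99), without papilloma skin 1 and tumor 1 together (0.99) and on the 6 full-slope arrays (0.97), with adjusted p between 0.0017 and 0.0109. Leaving out any single array kept the call in tumor versus tumor skin, as did leaving out papilloma skin 1 and tumor 1 together (1.35, adjusted p = 0.0181). On slide 1, the one slide that held both groups, tumor 1 exceeded tumor skin 1 by 1.59.

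Clec4a1 (also named Dcir4) fell in both lesions. Its log2 value was 11.95 and 11.44 in papilloma skin, 10.94 and 10.90 in tumor skin, 9.53, 9.18 and 10.09 in papilloma, and 8.93 and 8.08 in tumor. All 5 lesion arrays lay below all 4 skin arrays. The difference was -2.41 (SE 0.35, adjusted p = 0.0069) between tumor and tumor skin and -2.09 (SE 0.32, adjusted p = 0.0078) between papilloma and papilloma skin, which are folds of 5.33 and 4.26. Within slides tumor was lower by a log2 difference of -2.01 on slide 1, and papilloma by -2.42 and -2.25 on slides 1 and 2. The call in tumor was lost without tumor 2 (-1.99, adjusted p = 0.0504). The call in papilloma was lost without papilloma skin 1, the array whose table column did not match its file (-1.84, adjusted p = 0.0608).

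Clec4a3 (Dcir3), whose probe lies within 35.1 kb of that of Clec4a1, showed the same order of groups with a wider spread. Its log2 value was 10.47 and 10.34 in papilloma skin, 9.41 and 9.51 in tumor skin, 8.54, 8.16 and 9.09 in papilloma, and 8.15 and 7.01 in tumor. Every lesion array again lay below every skin array. The difference was -1.88 (SE 0.39, adjusted p = 0.0233) for tumor and -1.81 (SE 0.35, adjusted p = 0.0208) for papilloma. The tumor call was lost without tumor skin 1 (-1.93), tumor skin 2 (-1.83) or tumor 2 (-1.31), with adjusted p between 0.0723 and 0.116. With slide as a term of the model the tumor difference was -1.44 (adjusted p = 0.104). The papilloma call was lost without papilloma skin 1 (-1.74), papilloma skin 2 (-1.88), papilloma 1 (-1.78) or papilloma 2 (-1.59), with adjusted p between 0.0574 and 0.105.

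Clec3b encodes tetranectin, a secreted plasminogen-binding protein. Its log2 value was 8.26 and 7.72 in papilloma skin, 7.71 and 7.17 in tumor skin, 6.86, 6.97 and 6.97 in papilloma, and 6.77 and 7.06 in tumor. The papilloma arrays lay below both papilloma skin arrays, with a difference of -1.06 (SE 0.22, adjusted p = 0.0244). The tumor difference of -0.52 (SE 0.24) did not pass (adjusted p = 0.204). The papilloma call was lost without papilloma skin 1 (-0.79) and without each of the papilloma arrays (-1.02 to -1.08), with adjusted p between 0.0636 and 0.133.

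**Figure D1:**
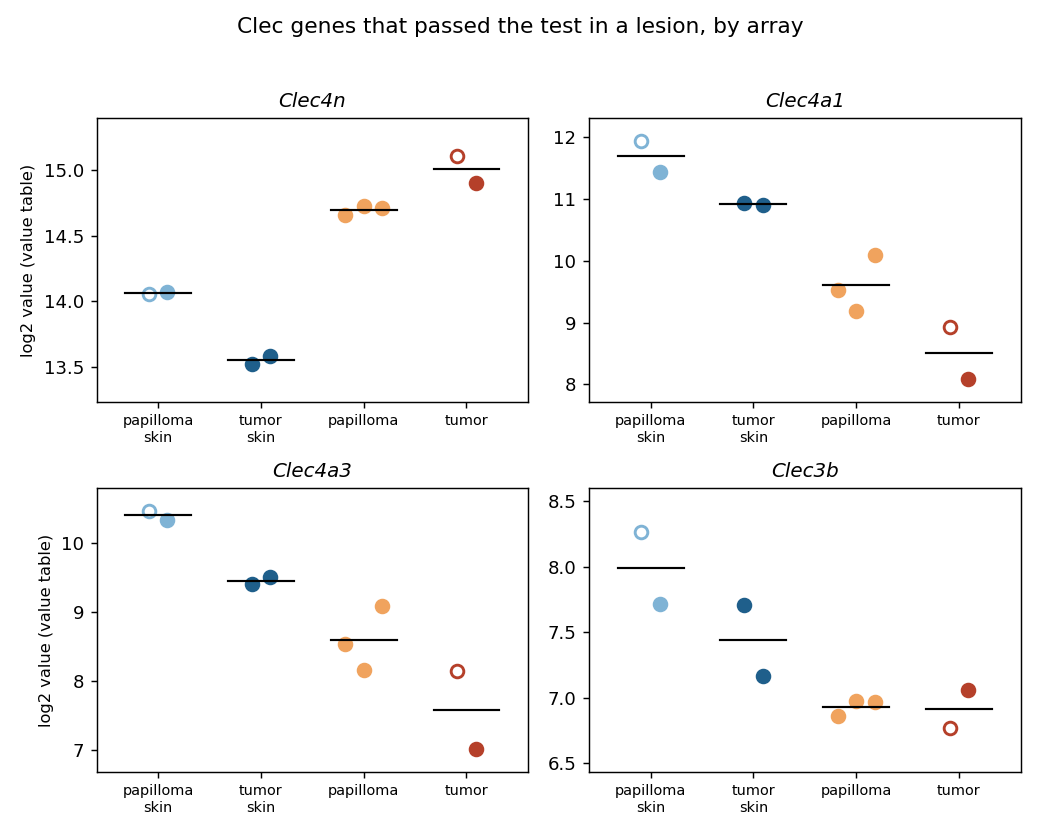
Log2 value of the 4 Clec genes that passed the test, per array and group, each panel with its own vertical axis. Points are arrays, open points are the table columns papilloma skin 1 and tumor 1 that did not match their scanner files, and black lines are group means. Clec4n sits at 14.66 to 15.11 in lesions and 13.52 to 14.07 in skin, and Clec4a1 and Clec4a3 are lower in each lesion array than in each skin array.

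Values computed from the scanner files instead of the table bear on these results. With all 9 scanner files, quantile normalized and with the slide effect removed, no Clec gene passed in either comparison. Of all 34566 gene names 25 passed in tumor and 614 in papilloma in this form. Clec4n still differed by 1.29 and 1.34, and Clec4a1 and Clec4a3 by -3.18 and -3.41 in tumor. In papilloma they differed by -0.34 and -0.05 only. Papilloma skin 1 had the lowest spike-in slope and read 9.29 for Clec4a1 in this form, against 10.79 for papilloma skin 2 and 9.59 to 9.87 for papilloma. On the 6 full-slope arrays alone, an alternative added after the data were seen, the scanner files gave -1.76 and -1.69 for Clec4a1 and Clec4a3 in papilloma, where the table gave -1.84 and -1.74 on the same arrays. In tumor they gave -3.70 and -3.96, and 1.01 for Clec4n. This compares tumor 2 with tumor skin 2 alone. The table read 8.08 and 10.90 on these arrays for Clec4a1, 7.01 and 9.51 for Clec4a3, and 14.90 and 13.59 for Clec4n. In tumor the 2 sources thus lay further apart than in papilloma, with smaller falls and a larger rise in the table. With 6 arrays 3 groups have 1 array each, which is assumed to vary like the papilloma arrays, and no Clec gene passed in the scanner values.

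**Figure D2:**
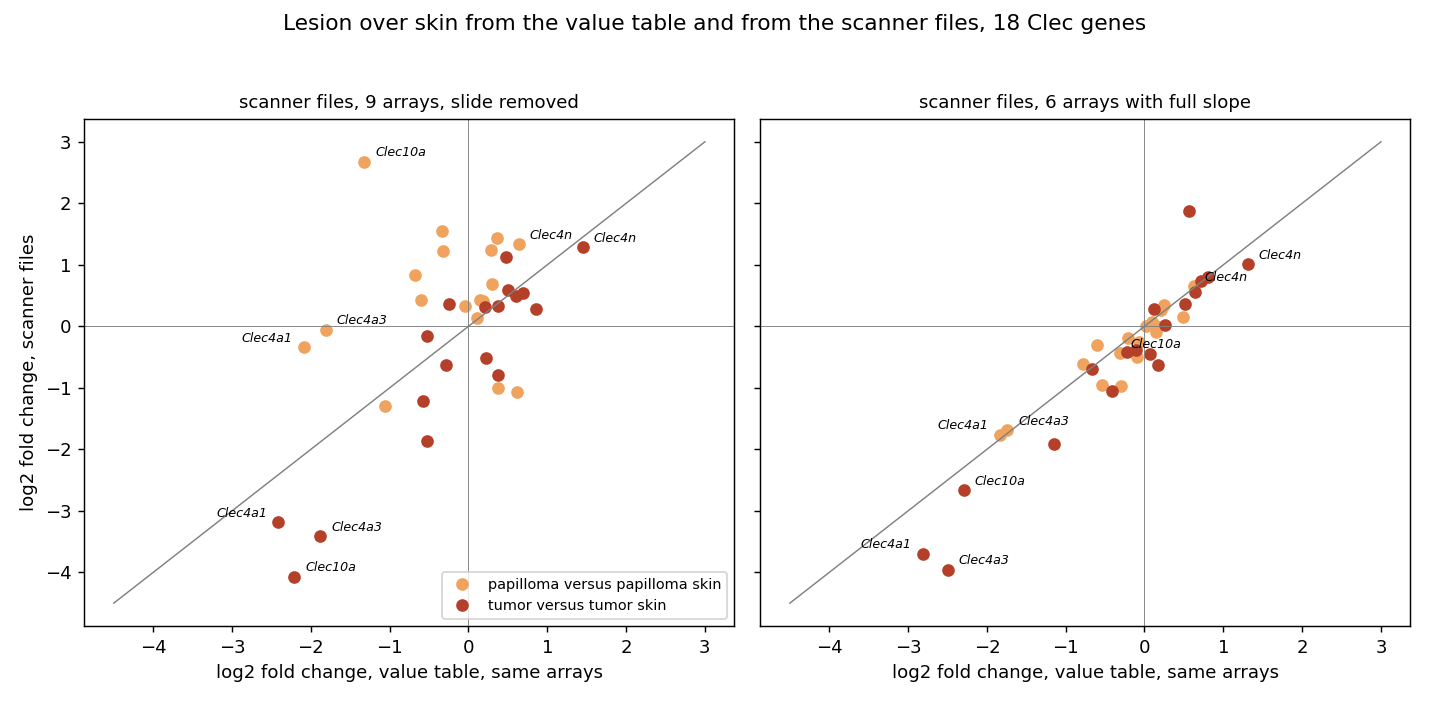
Log2 fold change of lesion over skin for the 18 Clec genes described in full, from the value table (horizontal axis) and from the scanner files (vertical axis). The left panel uses 9 arrays with the slide effect removed and the right panel the 6 full-slope arrays, and the line marks equal values. In the right panel Clec4a1 and Clec4a3 in papilloma lie next to the line, at -1.84 and -1.74 in the table and -1.76 and -1.69 in the scanner files, while in the left panel they lie at -0.34 and -0.05. The tumor points of both genes lie well below the line in the right panel.

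The activating receptors of the Clec4 stretch other than Clec4n, and Dectin-1, did not pass the test. Clec4d (Mcl) had log2 values of 16.46 and 16.86 in papilloma skin, 16.67 and 16.49 in tumor skin, 16.86, 17.03 and 16.97 in papilloma, and 16.97 and 16.60 in tumor. Its 9 arrays spanned 0.57, and the lesion differences were 0.21 (SE 0.19) and 0.30 (SE 0.17). Clec4e, the gene of Mincle, the receptor for mycobacterial cord factor, lay between 15.40 and 16.33. It was higher in both tumor arrays than in both tumor skin arrays by 0.61 (SE 0.26), which did not pass (adjusted p = 0.172), and in papilloma the groups overlapped. Clec7a, the beta-glucan receptor Dectin-1, lay between 15.85 and 16.59, with differences of -0.29 (SE 0.16) and -0.04 (SE 0.14). These 3 genes were well above background on all 9 arrays, so that dim signal was not the limit for them.

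Clec4b1 and Clec4b2 are receptors of the Dcar type, which pair with the Fc receptor gamma chain. Clec4b1 was higher by 0.86 (SE 0.24) in tumor and lower by a log2 difference of -0.33 (SE 0.22) in papilloma, and neither passed. Its 2 probes disagreed. One (chr6:123000666-123018461, whose 60 bases span 17796 bases of the genome) read 9.14 and 8.88 in tumor skin and 10.79 and 10.42 in tumor. The other (chr6:123015995-123016054) read between 5.35 and 5.74 on the same 4 arrays. The first probe differed by 1.59 in tumor and 0.30 in papilloma, and was well above background on all 6 full-slope arrays. The other differed by 0.12 and -0.96 and was well above background on only 2 of them. The lower gene value in papilloma thus came from the dim probe alone. Clec4b2 differed by 0.69 (SE 0.20) and 0.29 (SE 0.18). Clec4a4, the inhibitory Dcir2, was 6.90 and 6.78 in papilloma skin, 5.82 and 5.68 in tumor skin, 6.13, 6.13 and 6.46 in papilloma and 6.38 and 5.86 in tumor. It was thus higher in tumor by 0.37 (SE 0.21) and lower in papilloma by a log2 difference of -0.60 (SE 0.19), with adjusted p of 0.291 and 0.104. Its skin arrays differed more than its lesions did, by -1.09 (SE 0.21, adjusted p = 0.0564) for tumor skin against papilloma skin.

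**Figure D3:**
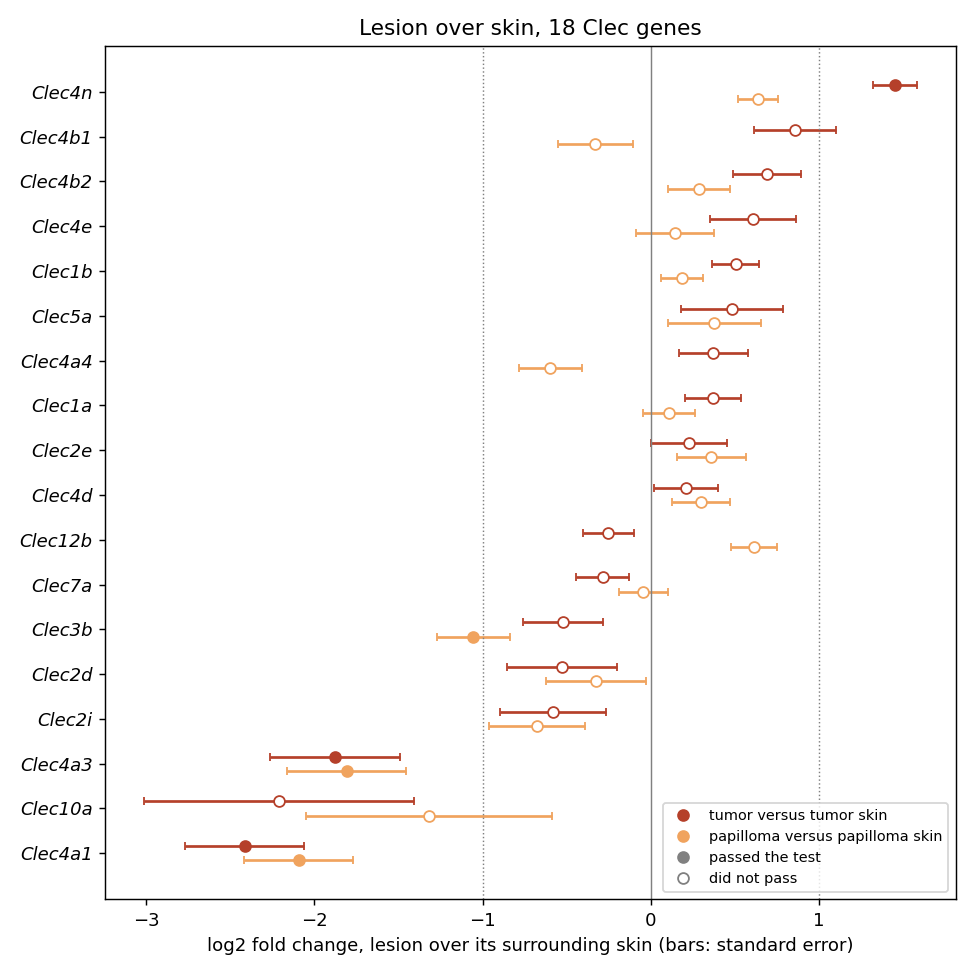
Log2 fold change of lesion over its surrounding skin with its standard error for the 18 Clec genes described in full, ordered by the tumor value. Filled points passed the test. Clec4n stands at 1.45 in tumor, Clec4a1 and Clec4a3 lie between -2.41 and -1.81 in both lesions, and Clec10a has the longest error bars (SE 0.80 and 0.73).

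Clec10a, the galactose-binding lectin Mgl1 of macrophages and dendritic cells, had the widest span of any Clec gene. Its log2 value was 11.73 and 9.72 in papilloma skin, 9.42 and 9.15 in tumor skin, 9.20, 8.31 and 10.71 in papilloma, and 7.29 and 6.86 in tumor. Both tumor arrays lay below both tumor skin arrays, with a difference of -2.21 (SE 0.80), which did not pass (adjusted p = 0.122). The papilloma groups overlapped (-1.32, SE 0.73, adjusted p = 0.350), and that difference was -0.32 without papilloma skin 1 and tumor 1. In the 9 scanner files it had the opposite sign (2.68).

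Outside these, no gene passed. Clec5a, which pairs with the adaptor Tyrobp, differed by 0.48 (SE 0.30) and 0.38 (SE 0.28). Clec12b, an inhibitory receptor, was higher in the papilloma arrays (6.96, 7.10 and 6.97) than in papilloma skin (6.27 and 6.53), a difference of 0.61 (SE 0.14) whose adjusted p of 0.0342 passed while its size did not. Its 2 probes gave 0.80 and 0.43. The Nkrp1 ligands Clec2d and Clec2i differed by -0.53 (SE 0.33) and -0.58 (SE 0.32) in tumor and by -0.33 (SE 0.30) and -0.68 (SE 0.29) in papilloma. Clec1a, Clec1b and Clec2e lay between 0.11 and 0.50 in both comparisons. The sign of the difference turned under at least 1 alternative, mostly with the scanner files, for Clec4a4, Clec4e and Clec12b in both comparisons. It turned in tumor alone for Clec2e and Clec4d, and in papilloma alone for Clec1a, Clec1b, Clec2d, Clec2i, Clec4b1, Clec5a, Clec7a and Clec10a.

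**Figure D4:**
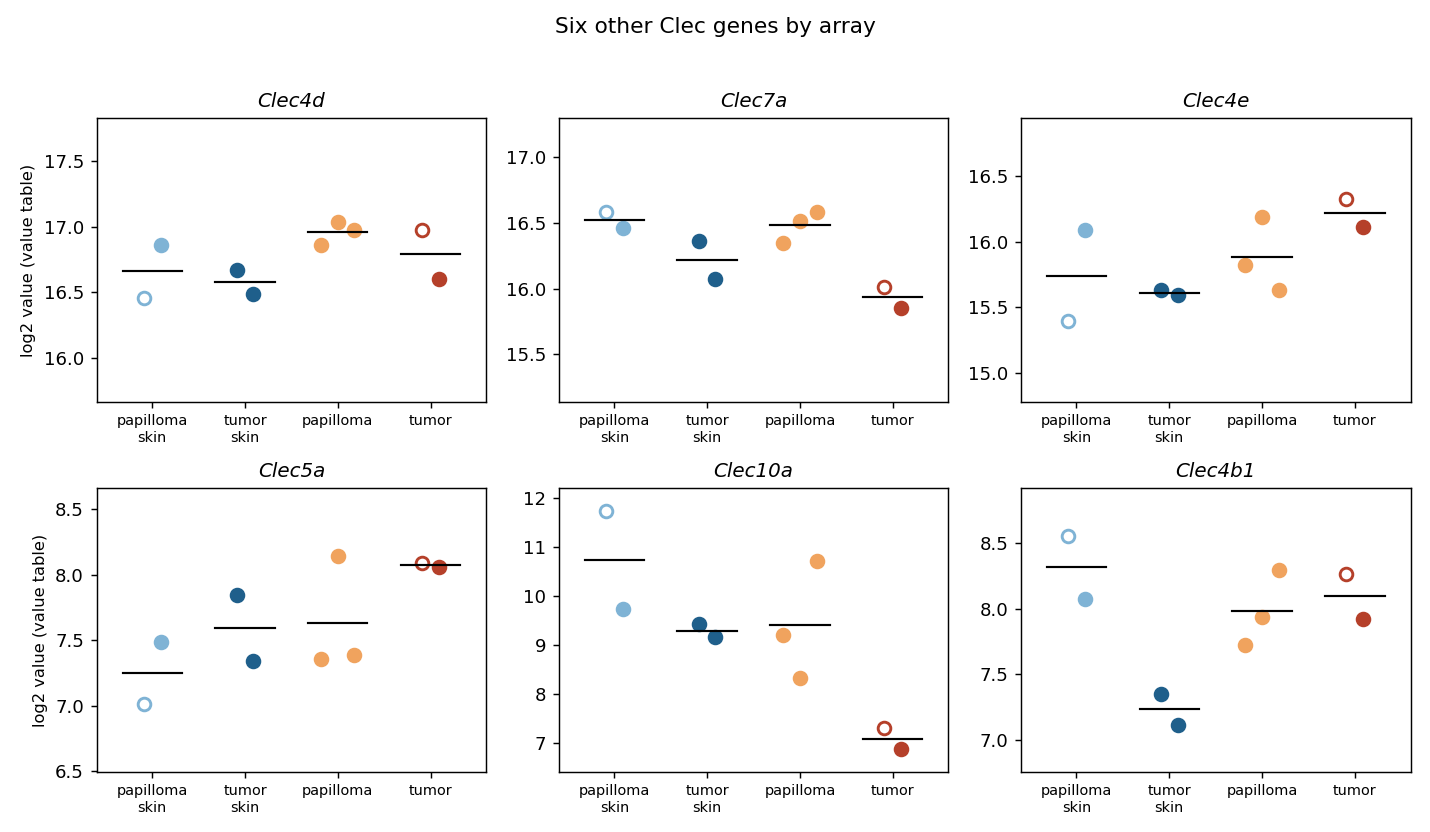
Log2 value of 6 Clec genes that did not pass the test, per array and group, each panel with its own vertical axis. Points are arrays, open points are the table columns papilloma skin 1 and tumor 1, and black lines are group means. Clec4d spans 0.57 over 9 arrays, whereas Clec10a runs from 6.86 to 11.73 and overlaps between papilloma skin and papilloma.

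Among the 13 dim genes, the largest change against either skin was 0.84 (SE 0.37) for Clec2g in tumor, which came from 1 of its 2 probes and mostly from tumor 2 (8.47 on that probe, against 6.68 in tumor 1). Clec14a, a receptor of endothelial cells that binds Mmrn2, was 6.11, 6.12 and 5.93 in papilloma and 5.54 and 5.26 in papilloma skin, a difference of 0.66 (SE 0.17) with an adjusted p of 0.059. Clec16a had 1 probe of 3 well above background on all full-slope arrays, at 7.15 to 7.78. Clec4f, known from liver macrophages, was not well above background on any papilloma array. Its mean was 6.74 in tumor against a measured 5.05 in papilloma, a difference that did not pass. Tumor skin read 7.65 and 6.21. The value of 6.21, on tumor skin 2, was also not well above background, so the size of the difference from papilloma is uncertain. Clec9a, a dendritic cell receptor for exposed actin, lay between 4.80 and 6.55.

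Comparisons over stage gave no Clec call. In tumor versus papilloma 0 of 31 genes passed in limma, where 0.147% of all gene names were higher and 0.460% lower. At an unadjusted p under 0.05 there were 11 Clec genes (35.5%, beside 15.2% of all gene names). In tumor skin versus papilloma skin 0 passed in limma, beside 0.195% higher and 0.181% lower, and 10 did so unadjusted (32.3%, beside 22.2%). The difference of the lesion effects between stages gave 0 in limma, beside 0.0259% and 0.0632%, and 6 unadjusted (19.4%, beside 14.1%). For lesions versus skin as a whole the calls were Clec4n, higher, and Clec4a1 and Clec4a3, lower, beside 2.42% and 1.51% of all gene names. Tumor and papilloma arrays enter several of these comparisons, so they are not separate evidence. The lowest adjusted p was 0.0564 in tumor skin versus papilloma skin, for Clec4a4 as given above, and 0.103 in tumor versus papilloma, for Clec14a (-0.75, SE 0.17). Clec4a1 and Clec4a3 were lower on both tumor arrays than on any papilloma array, with group differences of -1.10 (SE 0.32) and -1.02 (SE 0.35), without passing (adjusted p = 0.183 and 0.241 in limma). For Clec4a3 the gap was slight, with 8.153 on tumor 1, whose column did not match its scanner file, and 8.159 on papilloma 2.

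The promoters of 4 genes of the Clec4 stretch are shown, since Clec4a1 and Clec4a3 moved together while Clec4d and Clec4e nearby did not pass. They run from 250 bases before to 50 after the RefSeq start in GRCm38.p6, read 5′ to 3′ along the gene. Capitals mark matches on either strand to GAGGAA, the core bound by the myeloid factor PU.1, or to the C/EBP pattern TTGCNNAA.
Clec4a1, chr6:122921598-122921897, plus strand: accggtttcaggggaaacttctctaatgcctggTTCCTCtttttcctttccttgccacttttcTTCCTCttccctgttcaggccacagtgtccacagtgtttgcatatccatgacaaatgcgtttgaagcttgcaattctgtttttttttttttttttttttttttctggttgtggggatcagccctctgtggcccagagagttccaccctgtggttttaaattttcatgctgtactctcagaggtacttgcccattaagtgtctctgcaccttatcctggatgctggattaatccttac
Clec4a3, chr6:122952394-122952693, plus strand: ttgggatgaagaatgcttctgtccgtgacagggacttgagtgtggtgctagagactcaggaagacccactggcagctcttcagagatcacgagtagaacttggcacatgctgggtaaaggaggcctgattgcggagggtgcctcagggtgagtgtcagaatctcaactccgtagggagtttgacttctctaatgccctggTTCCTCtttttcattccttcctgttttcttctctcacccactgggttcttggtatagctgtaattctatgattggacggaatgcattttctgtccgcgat
Clec4d, chr6:123261857-123262156, plus strand: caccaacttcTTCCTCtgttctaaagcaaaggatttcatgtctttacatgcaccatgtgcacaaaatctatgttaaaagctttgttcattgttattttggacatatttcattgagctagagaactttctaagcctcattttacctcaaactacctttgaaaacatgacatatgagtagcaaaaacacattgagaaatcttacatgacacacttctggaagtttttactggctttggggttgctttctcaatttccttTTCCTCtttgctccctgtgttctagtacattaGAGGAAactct
Clec4e, chr6:123289822-123290121, minus strand: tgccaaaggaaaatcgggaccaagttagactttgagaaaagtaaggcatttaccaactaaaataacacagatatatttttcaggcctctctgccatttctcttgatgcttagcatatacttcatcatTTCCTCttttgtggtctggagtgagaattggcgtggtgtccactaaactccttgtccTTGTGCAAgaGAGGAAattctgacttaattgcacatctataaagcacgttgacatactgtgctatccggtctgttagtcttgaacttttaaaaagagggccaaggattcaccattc
GAGGAA matched at -217 and -187 for Clec4a1, at -50 for the second annotated start of Clec4a3 and nowhere around its first start, at -240, 8 and 40 for Clec4d, and at -123 and -56 for Clec4e (first base of the match, counted from the start site as 1). TTGCNNAA matched at -66 for Clec4e, and the matches shown do not overlap. Of the 28 promoters listed for 25 Clec genes, 57.1% held GAGGAA and 21.4% held TTGCNNAA, beside 28.3% and 10.8% of 32851 promoters of the same length. The AP-1 pattern TGANTCA was in 21.4% beside 7.81%, and a pattern for NF-kB in 7.14% beside 4.59%. A match describes letters in this window and nothing about binding.

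A few of the signalling genes used by these receptors changed. Of 30 signalling genes, 2 were higher and 2 lower in tumor, and 1 was higher and 2 lower in papilloma, with medians of 0.11 and 0.04. Over all gene names 2.75% were higher and 1.61% lower in tumor and 2.43% and 1.17% in papilloma. The share of 30 was above these for the higher and the lower genes alike. The lower ones were the same 2 genes, Card9 and Plcg2, in both comparisons. Counts of 1 or 2 genes make such shares coarse, and whether they exceed the background was not tested. Card9, the adaptor downstream of Syk, was 8.32 and 8.87 in papilloma skin, 8.84 and 8.63 in tumor skin, 7.10, 7.27 and 7.30 in papilloma, and 7.64 and 6.92 in tumor. It fell by 1.46 on the log2 scale (SE 0.27, adjusted p = 0.0144) in tumor and fell by 1.37 (SE 0.24, adjusted p = 0.0136) in papilloma, with no overlap between lesion and skin arrays. Plcg2, the phospholipase on the same route, differed by -1.41 (SE 0.20) and -1.16 (SE 0.19) and passed in both. Egr2, an immediate early transcription factor, rose by 2.80 (SE 0.27) and 1.67 (SE 0.25), and Casp8 rose by 1.44 (SE 0.19) in tumor. Syk differed by -0.02 (SE 0.23) in tumor and 0.65 (SE 0.21) in papilloma, and Fcer1g by 0.12 (SE 0.13) and 0.63 (SE 0.12), without passing. For Fcer1g in papilloma the adjusted p of 0.0162 passed while the size did not.

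Of 11 cytokine and mediator genes known to follow such signalling, 3 were higher and none lower in each comparison, with medians of 0.79 and 0.54. In tumor these were Ptgs2 (1.75, SE 0.28), Cxcl2 (1.48, SE 0.29) and Il6 (1.44, SE 0.34), and in papilloma Csf3 (2.07, SE 0.27), Il6 (1.57, SE 0.31) and Tnf (1.31, SE 0.32). Many other receptors drive these genes as well. Of 9 ligands and partners, Mmrn2 rose in both (1.95, SE 0.38, and 2.05, SE 0.35) and Itga10 in papilloma (1.11, SE 0.20). Of 42 other C-type lectins, Olr1, the receptor for oxidized lipoprotein, rose by 2.23 (SE 0.18) in tumor and 2.06 (SE 0.16) in papilloma, and Mgl2, the relative of Clec10a, fell by 1.00 (SE 0.20) in tumor. The other 40 and 41 did not pass. Over all gene names 2.75% were higher and 1.61% lower in tumor, and 2.43% and 1.17% in papilloma. A count of 1 in 42 other lectins thus lies near the background, and the counts of the 2 shorter lists rest on 1 to 3 genes. The same shares stand beside the marker counts below.

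Markers of other cell types also differed between lesions and skin. Among the neutrophil markers S100a8 read 17.88 to 18.22 and Csf3r 16.68 to 16.89 over the arrays, while Ly6g ran from 9.30 to 12.65. Of the 12 neutrophil markers 5 were lower in tumor and 4 in papilloma (Camp, Ngp, Ltf and Mmp8 in both and Ly6g in tumor), and their log2 summed level was 19.75 to 19.97 in lesions and 20.01 to 20.26 in skin. Of 7 eosinophil markers 4 were lower in both lesions (Ear1, Ear2, Ccr3 and Il5ra) and 1, listed as Siglec5, was higher in tumor. Their summed level was at most 11.82 in lesions and 12.74 to 13.90 in skin, while Epx, which defines eosinophils, was well above background on no full-slope array. Of 11 monocyte and macrophage markers 2, Emr1 and Lyz2, were lower in both lesions, with a summed level of 17.56 to 18.01 in lesions and 17.45 to 17.81 in skin. Cd14 made up 84.1 to 97.0% of that sum on each array, so the sum shows Cd14 alone, while the median change over the list was -0.35 and -0.48. Of 12 dendritic cell markers 3 were lower in tumor (Cd74, H2-Ab1 and Ciita), while in papilloma Ciita was lower and Itgax higher. Their summed level was 14.05 to 14.26 in tumor, 15.21 to 15.61 in papilloma, 14.40 to 14.93 in tumor skin and 14.70 to 15.20 in papilloma skin. Itgax made up 42.4 to 79.7% of that sum in lesions and 13.2 to 37% in skin. The median change over the dendritic list was -1.02 in tumor and -0.002 in papilloma, and Xcr1 was well above background on no full-slope array.

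Of 12 keratinocyte markers 4 were higher in tumor (Krt6a, Krt6b, Krt14 and Krt16) and 3 in papilloma (the same without Krt14). Of 10 endothelial markers 3 were higher in tumor (Cdh5, Esam and Egfl7) and 6 in papilloma (these and Pecam1, Tie1 and Emcn). Of the B cell markers, 6 of them measured, Igj and Cd79b were lower in tumor and Igj in papilloma. The summed level was 8.43 to 9.50 in lesions and 13.32 to 15.24 in skin, where Igj, the joining chain of secreted antibodies, made up 93.5 to 97.3% of it. The median change over the list was -1.03 and -0.38. In tumor 1 T and NK cell marker of 9 (Cd3d) and 1 fibroblast marker of 8 (Dcn) were lower and 1 platelet marker of 10 (Ppbp) was higher, with none in papilloma, and no mast cell marker of 7 passed in either. The part of these cell types in the results for Clec4a1, Clec4a3, Clec3b and Clec4n was not tested.

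**Figure D5:**
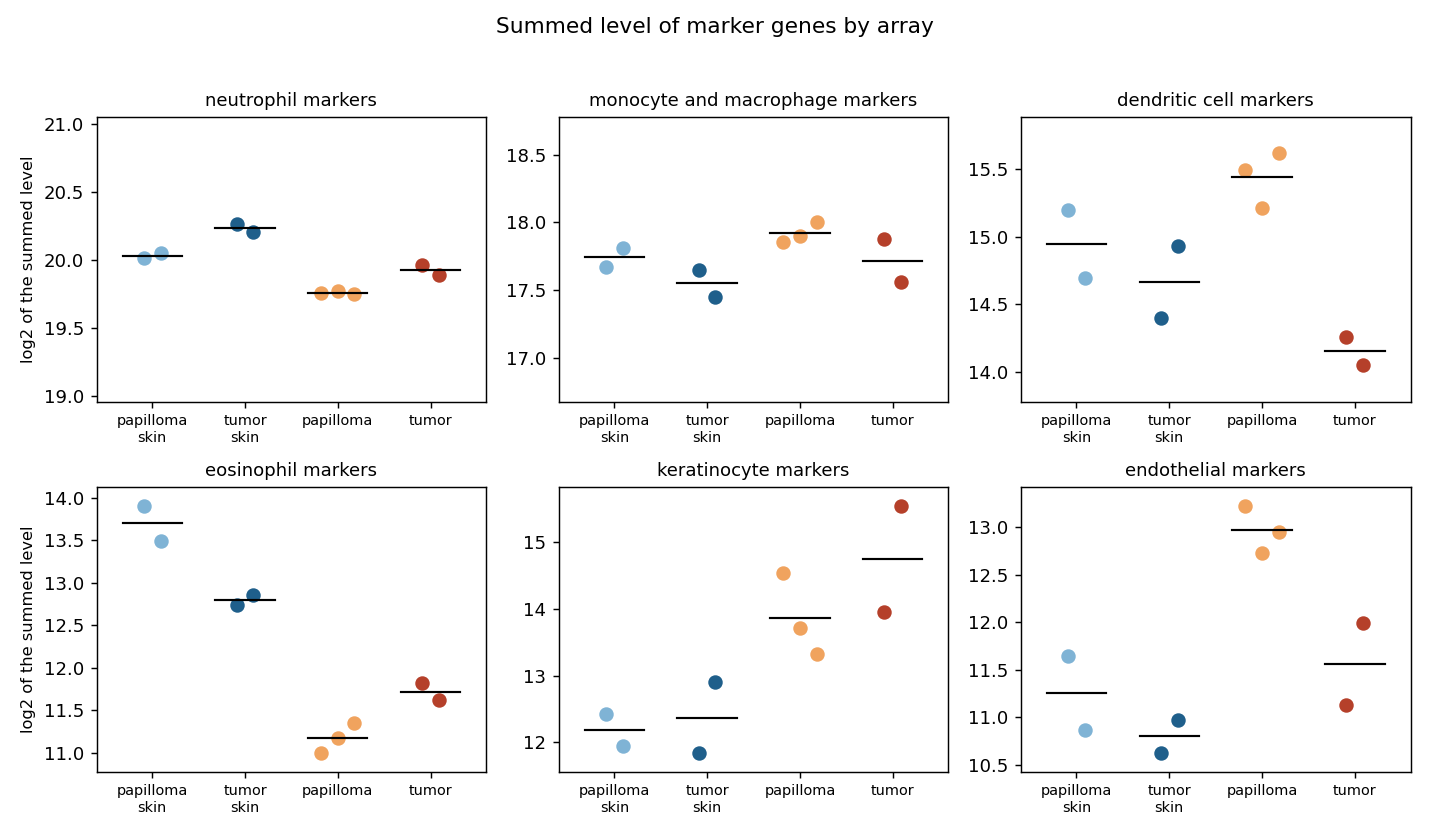
Log2 of the summed level of 6 marker lists, per array and group, each panel with its own vertical axis. Points are arrays and black lines are group means. Eosinophil markers lie at or below 11.82 in lesions and 12.74 to 13.90 in skin, and dendritic cell markers are lowest in tumor, at 14.05 to 14.26. Itgax makes up 42.4 to 79.7% of the dendritic sum in lesions and 13.2 to 37% in skin.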

How the data were processed

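Gene expression was measured on 9 one-color Agilent mouse arrays. The deposited log2 values are the authors' processed table. The methods describe quantile normalization and removal of the chip effect by ComBat, but not which of these the table holds, so the degrees of freedom may be too high where a slide effect had been removed. The deposited intensity values are scanner output made by the authors with Feature Extraction 10.7.3.1 (build mm9, per the file headers), background-subtracted within each array. Controls were left out, and gene names are those of the scanner files. Of the probes with a RefSeq accession 37 of 38 matched the RefSeq table. The unmatched probe was the only one of Clec7a, so its identity rests on the gene name in the scanner files.

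A gene took the median of its probes. Group means over 9 arrays were fitted in limma 3.58.1 (lmFit, eBayes, R 4.3.3) with 5 residual degrees of freedom, and p was adjusted (Benjamini-Hochberg) over 34797 gene names. The code was tested on simulated data. Genes were described in full at a mean log2 value of at least 6 with a probe well above background on every full-slope array (slope at least 0.9) of at least 1 group. Of the signalling, cytokine, ligand and other lectin lists, called genes are named, at most 6 a list. The family and the lists were chosen with earlier results of these data known. Alternatives changed the source of the values (scanner files, quantile normalized with the slide effect removed, slide as a term or no correction, 75th percentile scaling, or normexp with offset 50), the slide term, the level minimum, dim probes, the mean over probes, the replicate block and the arrays used. The scanner values of the 6 full-slope arrays were added after the data were seen. The number of arrays limits the precision. Tables were summarised in pandas 2.3.3 under Python 3.11.15 and figures drawn with matplotlib 3.10.9.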

Additional observations from a re-analysis of the deposited data

How the results depend on the processing

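From the value table the number of Clec genes that passed stayed at 3 in tumor versus tumor skin without a level minimum, with dim probes left out, with the mean over probes and on the 6 full-slope arrays, and was 2 with slide as a term. In papilloma versus papilloma skin it was 3, 3, 3, 2 and 2 in the same order, and 0 without the columns papilloma skin 1 and tumor 1. With 1 array left out it was 1 to 3 in tumor (1 without tumor 2), 0 to 3 in papilloma (0 without papilloma skin 1, 1 without papilloma 1 or papilloma 2) and 2 to 4 for lesions versus skin (2 without tumor 1). From the scanner files it was 0 in all 3 comparisons with the slide effect removed, with slide as a term, with no slide correction and on the 6 full-slope arrays (the last added after the data were seen). With 75th percentile scaling it was 0, 1 (Clec4n, higher) and 0, and with normexp 0, 0 and 2. Of all 34566 gene names with scanner values, 25, 614 and 618 passed with the slide effect removed. The counts were 2, 1971 and 653 with 75th percentile scaling and 176, 948 and 767 with normexp. They were 0, 0 and 0 with slide as a term and 0, 0 and 1 with no slide correction. In those last 2 settings a Clec count of 0 cannot be told from a general lack of calls. No alternative gave a Clec call in the stage comparisons. The cause of these differences was not tested. Whether the replicate numbers pair the arrays could not be told. The r of deviations was between -0.93 and 0.43 for arrays of 1 number, but in a group of 2 arrays the deviations mirror each other. With the number as a replicate block 2 genes passed in tumor, 2 in papilloma and 4 for lesions versus skin.

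Of 792 values of single genes under the alternatives, 660 kept direction and side of the threshold, 57 lost the call, 1 gained it and 74 turned in sign. The turned values belong to genes that did not pass in the main analysis. For the turned values given here, slide as a term gave the same value as the slide removed, and in papilloma versus papilloma skin the 6 full-slope arrays of the table gave the same value as the table without papilloma skin 1 and tumor 1. In tumor versus tumor skin the sign turned as follows. Clec12b, -0.25 in the main analysis, was 0.36 (slide removed), 0.30 (75th percentile scaling) and 0.22 (normexp). Clec2e, 0.23 in the main analysis, was -0.51 (slide removed), -0.39 (no slide correction), -0.30 (75th percentile scaling), -0.0775 (normexp) and -0.45 (6 full-slope scanner arrays). Clec4a4, 0.37 in the main analysis, was -0.79 (slide removed), -0.54 (no slide correction), -0.43 (75th percentile scaling), -0.18 (normexp) and -0.63 (6 full-slope scanner arrays). Clec4d, 0.21 in the main analysis, was -0.52 (75th percentile scaling). Clec4e, 0.61 in the main analysis, was -0.0306 (75th percentile scaling). In papilloma versus papilloma skin the sign turned as follows. Clec10a, -1.32 in the main analysis, was 2.68 (slide removed), 2.22 (no slide correction), 1.95 (75th percentile scaling) and 1.69 (normexp). Clec12b, 0.61 in the main analysis, was -1.06 (slide removed), -0.78 (no slide correction), -1.19 (75th percentile scaling) and -0.59 (normexp). Clec1a, 0.11 in the main analysis, was -0.23 (75th percentile scaling), -0.0634 (the table without papilloma skin 1 and tumor 1) and -0.25 (6 full-slope scanner arrays), and -0.0634 to 0.28 with 1 array left out. Clec1b, 0.18 in the main analysis, was -0.59 (75th percentile scaling). Clec2d, -0.33 in the main analysis, was 1.23 (slide removed), 1.22 (no slide correction), 0.86 (75th percentile scaling) and 0.85 (normexp). Clec2i, -0.68 in the main analysis, was 0.84 (slide removed), 1.000 (no slide correction), 0.0101 (75th percentile scaling) and 0.22 (normexp). Clec4a4, -0.60 in the main analysis, was 0.44 (slide removed), 0.50 (no slide correction) and 0.12 (normexp). Clec4b1, -0.33 in the main analysis, was 1.56 (slide removed), 1.57 (no slide correction), 0.72 (75th percentile scaling) and 0.88 (normexp). Clec4e, 0.14 in the main analysis, was -0.20 (the table without papilloma skin 1 and tumor 1) and -0.19 (6 full-slope scanner arrays), and -0.20 to 0.49 with 1 array left out. Clec5a, 0.38 in the main analysis, was -1.004 (slide removed), -0.75 (no slide correction), -0.78 (75th percentile scaling), -0.80 (normexp) and -0.0988 (6 full-slope scanner arrays). Clec7a, -0.0445 in the main analysis, was 0.34 (slide removed), 0.30 (no slide correction), 1.31 (75th percentile scaling), 0.21 (normexp), 0.0156 (the table without papilloma skin 1 and tumor 1) and 0.0123 (6 full-slope scanner arrays), and -0.10 to 0.0231 with 1 array left out. The number of arrays limits the precision, and for the 13 dim genes signal near background does as well.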
